A study of Mus musculus with 6 samples.

Results

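Bone morphogenetic proteins (BMPs) signal through cell surface receptors that phosphorylate the receptor-regulated SMAD proteins SMAD1, SMAD5 and SMAD9. These join SMAD4, enter the nucleus and switch on target genes, among which the inhibitor of DNA binding genes (Id1 to Id4) and the inhibitory SMADs (Smad6 and Smad7) are widely used as readouts. BMP signalling between epithelium and mesenchyme shapes the tooth and takes part in keeping the stem cells of the continuously growing mouse incisor. The members described here are these 9 genes, namely the 4 Id genes and 5 SMAD genes. They were picked by gene name, as parts of the BMP response, from 25700 genes in the deposited count table. No threshold on measured values entered the rule, although earlier results of these data were known. All 9 were among the 19264 genes that passed the filter on low counts.

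RNA was sequenced from the proximal incisor of 6 C57BL/6 mice aged 5 weeks. The 3 conditional knockout (cKO) mice were Gli1-CreERT2;Runx2fl/fl. In them tamoxifen activates Cre where Gli1 is active. Gli1, a transcription factor of hedgehog signalling, marks incisor mesenchymal stem cells. Cre then removes a loxP-flanked part of Runx2, which encodes a transcription factor of skeletal and dental mesenchyme. The 3 control mice were Runx2fl/fl without Cre. All mice, aged 1 month, had tamoxifen at 1.5 mg per 10 g body weight on 3 days and were sampled 1 week later. Since controls carried no Cre, loss of Runx2 and any effect of the Gli1-CreERT2 allele itself cannot be told apart. The comparison asks how these 9 genes stand in the incisor after Runx2 is deleted from Gli1-expressing cells.

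The libraries held 53525185 to 66694240 estimated counts. Levels are counts-per-million (CPM) scaled by TMM, a factor that evens out library composition, and are given as mean ± SD over 3 mice. Runx2 measured 62.6, 54.0 and 49.0 CPM in the cKO mice and 79.7, 77.7 and 81.2 CPM in the controls, so every cKO mouse was below every control (edgeR quasi-likelihood test, adjusted p = 0.0714). Gli1 measured 75.0, 77.9 and 70.6 CPM in the cKO mice and 159, 89.7 and 207 CPM in the controls (log2 fold change -1.03, edgeR adjusted p = 0.131, DESeq2 adjusted p = 0.00185). Every cKO mouse was again below every control, which held for 12% of all tested genes. The cause of the Gli1 difference was not tested. Control 1 was male by its Xist and Ddx3y counts and the other 5 mice were female. The labels name dental mesenchyme. The 8 markers of that tissue summed to 18451 to 33483 CPM in cKO mice and 9108 to 15868 CPM in controls, with Col1a1 making up most of the sum. Epithelium was present as well, at 2275 to 3566 CPM for 8 markers in cKO mice and 2633 to 3469 CPM in controls. Of these 8, 3 had a log2 fold change above 0 and 5 below. None passed by edgeR and 3 did by DESeq2, against 0.026% and 6.89% of all tested genes. These were Krt15 (0.75), higher in every cKO mouse than in any control, and Sp6 (-0.84) and Shh (-0.81), lower in each. An annotated transcript overlaps 86.7% of the exonic bases of Sp6. Maturation-stage ameloblast markers were high in all cKO mice (1107 to 2624 CPM) and in control 2 (1798 CPM), and at most 112 CPM in control 1 and control 3. Skeletal muscle markers were low in cKO mice (from 11.9 CPM) and in control 2 and control 3 (14.2 and 14.5 CPM), and stood at 242 CPM in control 1. Neutrophil and erythroid markers reached 101 and 100 CPM in cKO 1 and cKO 2, against 22.1 CPM in cKO 3 and 17.0 to 37.1 CPM in controls. Pericyte and smooth muscle markers summed to 1148 to 1288 CPM in cKO mice and 1232 to 1402 CPM in controls, with Rgs5 near 588 CPM in cKO mice and 587 CPM in controls. The contractile genes Acta2, Tagln, Myh11 and Cnn1 were lower in every cKO mouse than in any control, whereas Notch3, Cspg4 and Mcam were higher in each. These orders of the groups held for 12% and 11.1% of all tested genes. None of these 10 markers passed by edgeR and 6 did by DESeq2, against 0.026% and 6.89% of all tested genes. Immediate early genes, which respond to handling, summed to 92.9 to 115 CPM in cKO mice and 94.9 to 106 CPM in controls. Of these 7 genes, 4 had a log2 fold change above 0 and 3 below, and none passed by edgeR or DESeq2. Fos, Junb and Egr1 (0.39, 0.54 and 0.38) were higher in every cKO mouse than in any control, as were 11.1% of all tested genes. Jun, the largest part of the sum, was at -0.24 with overlapping groups.

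None of the 9 genes passed the test between cKO and control incisors at an adjusted p under 0.05 (edgeR), as 0.026% of all tested genes did. DESeq2 also called 0 of the 9, against 6.89% of all tested genes. At an unadjusted edgeR p under 0.05 there was 1 of 9, Smad6, against 17.3% of all tested genes. Of the 9, 8 had a log2 fold change (cKO over control) above 0, and so had 50% of all genes tested. Their median was 0.095, against 0.000048 over all tested genes. The 95% intervals of the 9 lay between log2 values of -0.24 and 0.56, so cKO levels from 0.849 to 1.47 times those of controls remained possible. The genes were deeply counted, from 1603 counts of Smad9 in control 3 to 19432 counts of Id3 in cKO 2.

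**Figure D1:**
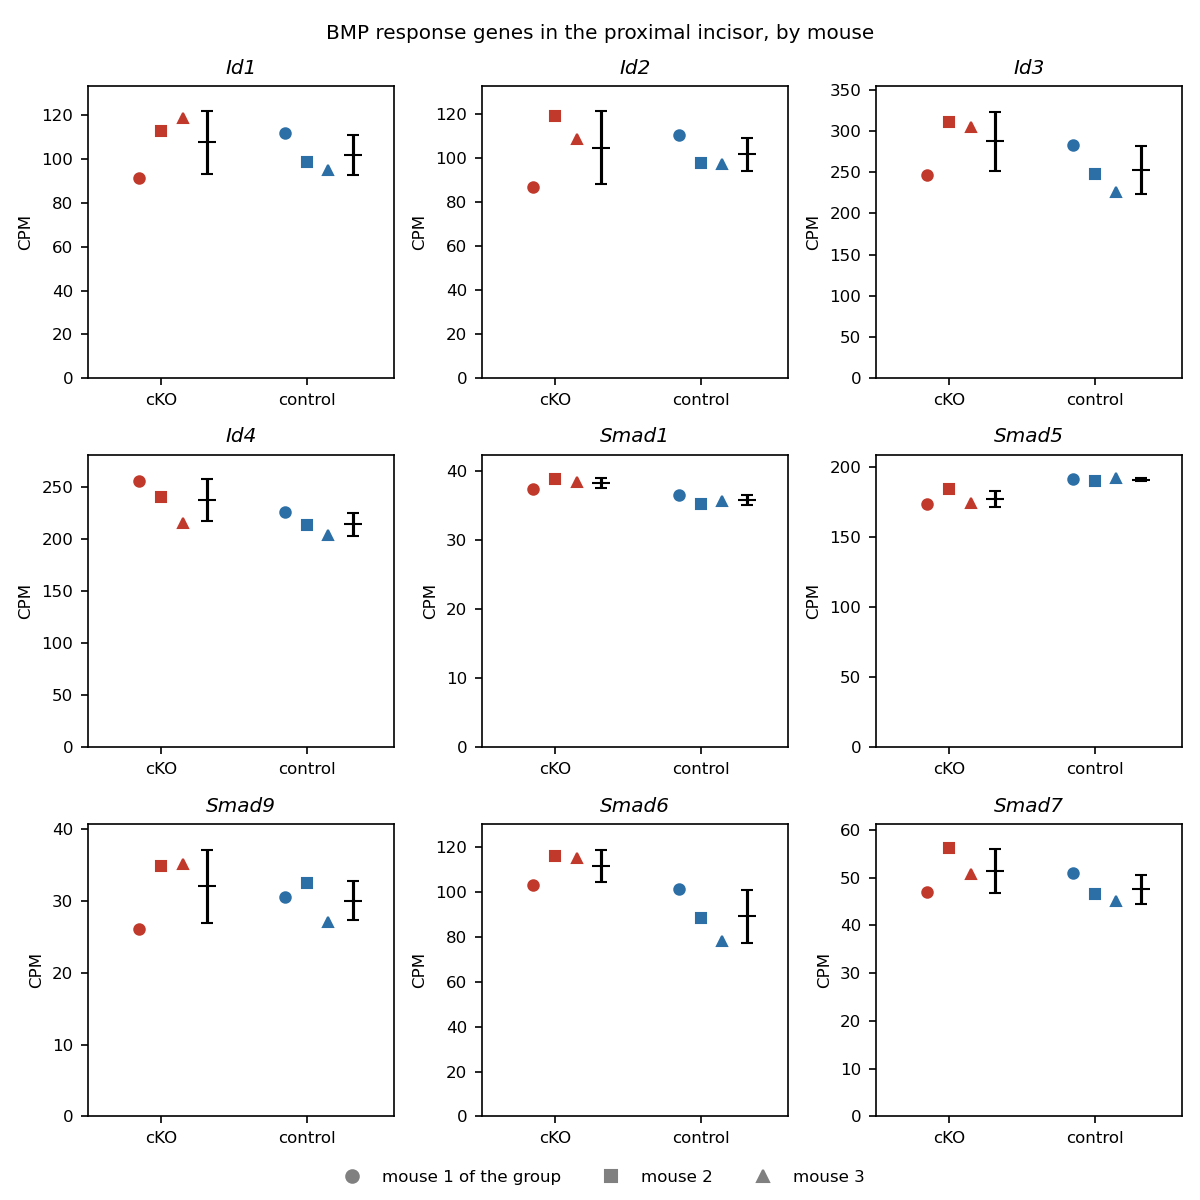
CPM of each of the 9 genes on a linear axis from 0, with 1 point per mouse, cKO on the left and control on the right, and the group mean with its SD (n = 3) as a bar beside the points. Only Smad1, Smad5 and Smad6 show groups that do not overlap, and Smad6 has the largest log2 fold change (0.32; means of 112 CPM in cKO and 89.4 CPM in control).

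Smad6 and Id3 carry the largest differences among the inhibitory SMADs and the Id genes, so their start regions are printed here to show what BMP-related letters they hold. Both are taken from RefSeq on build GRCm38.p6 (the assembly that mm10 names), 250 bases before to 50 after the annotated start, in the direction of the gene. Smad6 is at chr9:64022010-64022309 (minus strand) and Id3 at chr4:136143572-136143871 (plus strand). Capitals mark GGAGCC, a form of the GC-rich element that BMP SMADs bind, and GTCT, the core of the SMAD binding element, on either strand.
Smad6: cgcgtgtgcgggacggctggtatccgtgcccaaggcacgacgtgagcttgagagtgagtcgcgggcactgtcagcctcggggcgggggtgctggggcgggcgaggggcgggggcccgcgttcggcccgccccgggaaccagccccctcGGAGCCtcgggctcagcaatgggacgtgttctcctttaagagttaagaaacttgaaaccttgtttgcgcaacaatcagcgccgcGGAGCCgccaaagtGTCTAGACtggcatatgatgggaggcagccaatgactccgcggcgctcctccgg
Id3: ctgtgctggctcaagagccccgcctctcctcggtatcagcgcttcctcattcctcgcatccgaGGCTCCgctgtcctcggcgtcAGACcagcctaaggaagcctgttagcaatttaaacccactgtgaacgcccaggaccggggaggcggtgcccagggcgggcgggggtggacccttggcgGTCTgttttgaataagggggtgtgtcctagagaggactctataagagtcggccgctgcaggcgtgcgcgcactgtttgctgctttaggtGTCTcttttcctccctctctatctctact

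In the Smad6 window GGAGCC begins 102 and 18 bases before the start, and the pair of GTCT matches forms the palindrome GTCTAGAC across the start itself. That palindrome, looked for after the window had been read, stands in 70 of 32851 RefSeq start windows (0.213%). The Id3 window holds GGAGCC beginning 187 bases before the start and GTCT beginning 166 and 68 bases before and 21 bases after it. RefSeq windows matched 7 of the 9 members (Id2, Id3, Id4, Smad1, Smad5, Smad6 and Smad9), with 9 windows in all because Smad5 has 3. Of the Smad5 windows, chr13:56702760-56703059 and chr13:56702802-56703101 overlap, whereas chr13:56703418-56703717 stands apart. GGAGCC was in 6 of these 9 windows, against 30.8% of all windows. GGCGCC, the other form of the GC-rich element, was in 5 of 9, against 11.9% of all windows. GTCT was in 7 of 9, against 88.0%. The overlapping Smad5 windows hold the same GGCGCC site and the same GTCT site. The counts for GGCGCC and GTCT therefore include each of these sites more than once, and the 9 windows are not independent. The core RUNX motif TGTGGT was in 0 of 9, against 16.8% of all windows. GTCT lies inside GTCTAGAC, and no other matches overlap in the printed windows. Members' windows held 60.0% to 73.7% G and C, against a median of 52.7% over all windows, which bears on how often such motifs occur.

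Smad6 encodes an inhibitory SMAD that blocks BMP receptors and SMAD1, and BMP induces it, which closes a negative feedback loop. It lies on chromosome 9 (63953076 to 64022059, mm10, minus strand). It measured 103, 116 and 115 CPM in the cKO mice and 102, 88.4 and 78.1 CPM in the controls. Every cKO mouse was above every control, but cKO 1 exceeded control 1 by a narrow margin. The means were 112 ± 7.14 CPM in cKO mice and 89.4 ± 11.8 CPM in controls (SD, n = 3 each). The log2 fold change was 0.32 (SE 0.10, 95% interval 0.082 to 0.56), a level 1.25 times that of controls, and it did not pass over all genes (edgeR adjusted p = 0.186). By DESeq2 the adjusted p was 0.0723. Leaving out each mouse in turn gave log2 fold changes from 0.23 (without control 3) to 0.43 (without control 1), with edgeR adjusted p from 0.133 to 0.387. Groups that do not overlap, with the cKO mice above, were found for 2 of 9 members, Smad6 and Smad1, against 11.1% of all tested genes.

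Endothelial and macrophage markers were higher in cKO mice as well. So were most dental mesenchyme markers, with 6 of 8 above 0 and 2 below (median log2 fold change 0.26). None of these 8 passed by edgeR and 4 did by DESeq2. Endothelial cells, which are known to express Smad6 strongly, were followed with 10 markers. Their sum was 786, 763 and 795 CPM in the cKO mice and 663, 658 and 625 CPM in the controls, and 10 of 10 had a log2 fold change above 0 (median 0.27). No endothelial marker passed by edgeR and 7 of 10 passed by DESeq2, against 0.026% and 6.89% of all tested genes. Smad6 divided by the endothelial sum, a ratio formed after these values were seen, was 0.132, 0.152 and 0.145 in the cKO mice and 0.153, 0.134 and 0.125 in the controls. Per endothelial marker RNA the Smad6 groups therefore overlapped, with control 1 the highest of the 6 mice. Mean ratios for Smad6 were 0.143 in cKO mice and 0.138 in controls. The same ratios for Smad7, Id1 and Id3 averaged 0.0658, 0.138 and 0.368 in cKO mice. In controls they averaged 0.0733, 0.157 and 0.389. For Smad7 and Id3 the groups overlapped. For Id1 every cKO mouse lay below every control, narrowly (0.1492 in cKO 3, 0.1495 in control 2). Undivided, Smad6 was only narrowly apart between groups (103 CPM in cKO 1, 102 CPM in control 1). Division by any sum that is higher in cKO mice can easily make such groups overlap. The part of endothelium in the Smad6 difference was not tested. Macrophage markers summed to 619 to 772 CPM in cKO mice and 384 to 516 CPM in controls, with 6 of 6 above 0 (median log2 fold change 0.59). No macrophage marker passed by edgeR and 5 of 6 passed by DESeq2, against the same shares of all tested genes. The part of macrophages in the Smad6 difference was not tested. In such bulk tissue a change in the number of cells of a type and a change in RNA per cell cannot be told apart.

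**Figure D2:**
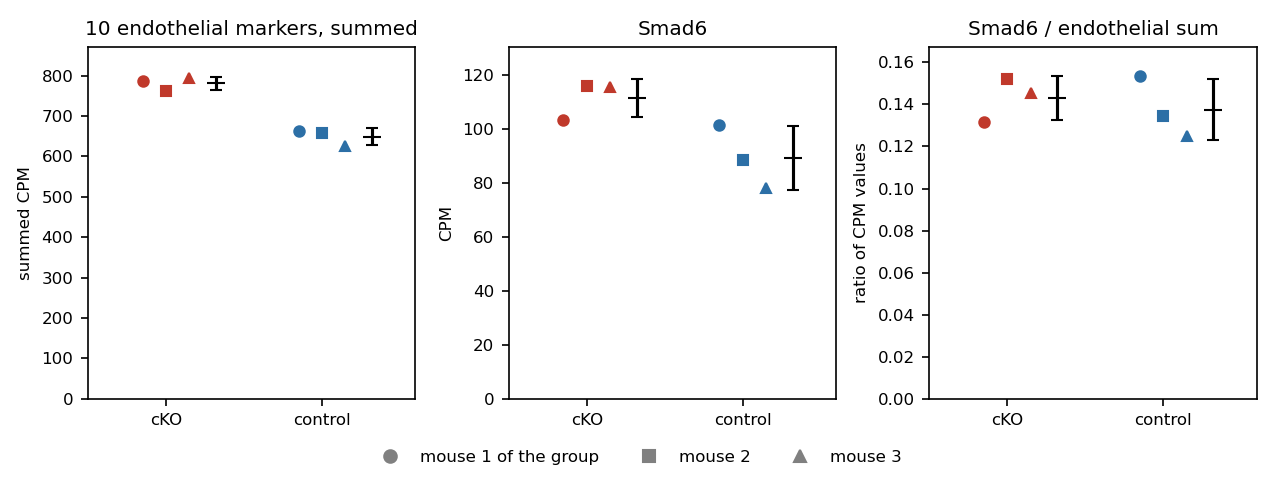
The sum of 10 endothelial markers in CPM (left), Smad6 in CPM (middle) and their ratio (right), with 1 point per mouse, cKO left of control, and the mean with its SD (n = 3). The marker sum separates the groups (763 to 795 CPM in cKO, 625 to 663 CPM in control), whereas the ratio overlaps (0.132 to 0.152 in cKO, 0.125 to 0.153 in control).

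Smad7, the other inhibitory SMAD, blocks receptors of both the BMP and the TGF-beta branch. It lies on chromosome 18 (75367529 to 75395935, mm10, plus strand). Its levels were 47.0, 56.1 and 50.9 CPM in the cKO mice and 50.9, 46.6 and 45.2 CPM in the controls. The groups overlapped, since cKO 1 and, narrowly, cKO 3 (50.86 CPM) lay below control 1 (50.88 CPM). The log2 fold change was 0.11 (SE 0.081, 95% interval -0.080 to 0.30, edgeR adjusted p = 0.536). This interval overlapped that of Smad6 (0.082 to 0.56), and a difference between Smad6 and Smad7 was not tested.

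Id3 was the member with the highest CPM and had the largest difference among the Id genes. Id proteins carry a helix-loop-helix domain without a DNA-binding region, and by pairing with E-proteins they keep these from activating differentiation genes. Id3 (chromosome 4, 136143497 to 136145755, plus strand) measured 246, 311 and 305 CPM in the cKO mice and 283, 248 and 226 CPM in the controls. The mice cKO 2 and cKO 3 were above all controls, while cKO 1 was below control 1 and control 2. The means were 287 ± 35.8 CPM in cKO mice and 253 ± 28.9 CPM in controls, a log2 fold change of 0.19 (SE 0.12, 95% interval -0.093 to 0.47, edgeR adjusted p = 0.473). Without cKO 1 it was 0.29 (edgeR adjusted p = 0.257).

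Id1 is the classical direct target of BMP SMADs and is also active in endothelium. On chromosome 2 (152736251 to 152737410, plus strand), it measured 91.3, 113 and 119 CPM in the cKO mice and 112, 98.4 and 94.7 CPM in the controls. The lowest and the highest of the 6 values were both from cKO mice. Its log2 fold change was 0.080 (SE 0.11, 95% interval -0.18 to 0.34, edgeR adjusted p = 0.758). It was 0.0038 without cKO 3 and 0.19 without cKO 1.

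Id2, which is expressed in epithelium and mesenchyme and restrains differentiation in several lineages, resembled Id1 in its wide spread among cKO mice. On chromosome 12 (25093799 to 25097140, minus strand), it measured 86.9, 119 and 109 CPM in the cKO mice and 110, 97.7 and 97.4 CPM in the controls. Both the lowest and the highest value were again from cKO mice. The log2 fold change of 0.042 (SE 0.12, 95% interval -0.24 to 0.32, edgeR adjusted p = 0.889) turned to -0.053 without cKO 2.

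Id4 is known for roles in osteoblast and neural differentiation. On chromosome 13 (48261228 to 48266026, plus strand), it measured 255, 240 and 216 CPM in the cKO mice and 226, 213 and 204 CPM in the controls. It was highest in cKO 1, the mouse in which Id1 and Id2 were lowest, and cKO 3 lay below control 1. For Id4 the log2 fold change was 0.15 (SE 0.079, 95% interval -0.040 to 0.33, edgeR adjusted p = 0.396). Antisense transcripts share 2.13% and 4.44% of its exonic bases, and the sources used here do not state strand.

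The receptor-regulated SMADs, which carry the signal from receptor to nucleus, went in different directions, and Smad5 and Smad1 had the narrowest log2 CPM ranges of the 9 members over the 6 mice. Smad5 (chromosome 13, 56703010 to 56742377, plus strand) measured 174, 184 and 174 CPM in the cKO mice and 191, 190 and 192 CPM in the controls. It was the 1 member with a log2 fold change below 0 and the 1 member with every cKO mouse below every control, which held for 12% of all tested genes. The difference was -0.11 (SE 0.051, 95% interval -0.23 to 0.013, edgeR adjusted p = 0.339). Its controls lay within 0.017 on the log2 scale. A small RNA gene on the same strand, Gm27301, shares 1.35% of its exonic bases.

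Smad1 is the close relative of Smad5 with which it acts largely in parallel. On chromosome 8 (79338395 to 79399518, minus strand), it measured 37.4, 38.9 and 38.4 CPM in the cKO mice and 36.6, 35.2 and 35.7 CPM in the controls. All cKO values lay above all control values, by a small step. The log2 fold change was 0.095 (SE 0.050, 95% interval -0.023 to 0.21, edgeR adjusted p = 0.386), and over the 12 alternatives it stayed between 0.082 and 0.12.

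Smad9 encodes the third BMP SMAD, known to activate transcription weakly. It lies on chromosome 3 (54755582 to 54801257, plus strand). It measured 26.1, 34.9 and 35.1 CPM in the cKO mice and 30.5, 32.5 and 27.1 CPM in the controls. The cKO mice again held both the lowest and the highest value. The log2 fold change was 0.093 (SE 0.13, 95% interval -0.21 to 0.39, edgeR adjusted p = 0.759), ranging from 0.023 without cKO 3 to 0.22 without cKO 1.

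**Figure D3:**
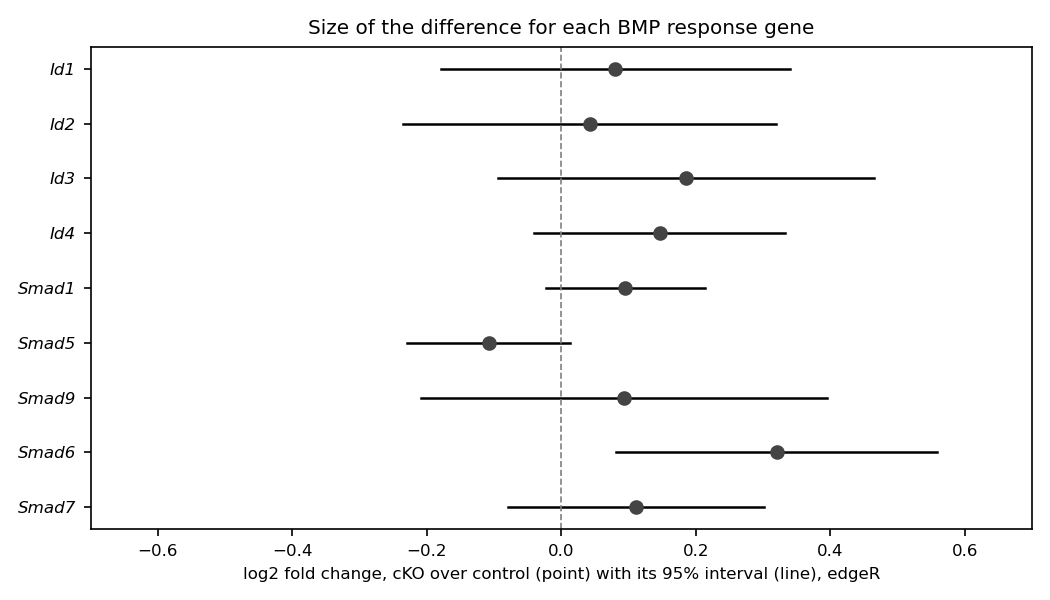
Log2 fold change of each member, cKO over control, as a point with its 95% interval from edgeR as a line. The interval of Smad6 (0.082 to 0.56) lies above 0, and those of the other 8 members include 0.

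Levels per length put the Id genes above the SMADs. On the scale of CPM per kilobase of exon (GENCODE M21 union of exons), Id3 averaged 160 ± 20.0 in cKO mice and 141 ± 16.1 in controls. Id1 followed with 92.7 ± 12.3 in cKO mice and 87.6 ± 7.78 in controls. Id4 averaged 61.6 ± 5.18 in cKO mice and 55.7 ± 2.86 in controls, and Id2 43.0 ± 6.74 in cKO mice and 41.8 ± 3.04 in controls. The order of the 4 Id genes was the same in both groups. Smad6 averaged 34.8 ± 2.23 in cKO mice and 27.9 ± 3.69 in controls, and Smad5 23.9 ± 0.792 in cKO mice and 25.7 ± 0.149 in controls. In controls these neighbours did not differ beyond their spread, since Smad6 ran from 24.4 to 31.7 and Smad5 from 25.6 to 25.9. Smad7 averaged 11.4 ± 1.01 in cKO mice and 10.5 ± 0.657 in controls. Smad1 (6.11 ± 0.121 in cKO mice, 5.72 ± 0.115 in controls) and Smad9 (5.97 ± 0.949 in cKO mice, 5.59 ± 0.509 in controls) were the lowest and overlapped in controls. These levels assume that the whole exon union is transcribed.

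The balance of inhibitory to receptor-regulated SMADs was computed in each mouse after the single values had been seen. The sum of Smad6 and Smad7 divided by the sum of Smad1, Smad5 and Smad9, in CPM, was 0.634, 0.668 and 0.672 in the cKO mice. In the controls it was 0.591, 0.525 and 0.484, so the groups did not overlap. The receptor-regulated sum itself was 237, 258 and 247 CPM in the cKO mice and 258, 257 and 255 CPM in the controls. The inhibitory sum was 150, 172 and 166 CPM in the cKO mice and 153, 135 and 123 CPM in the controls, with cKO 1 below control 1. Summed Id genes gave 680, 783 and 748 CPM in the cKO mice and 732, 657 and 622 CPM in the controls, which overlapped. No test is given for these sums because they were formed from members with known values.

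**Figure D4:**
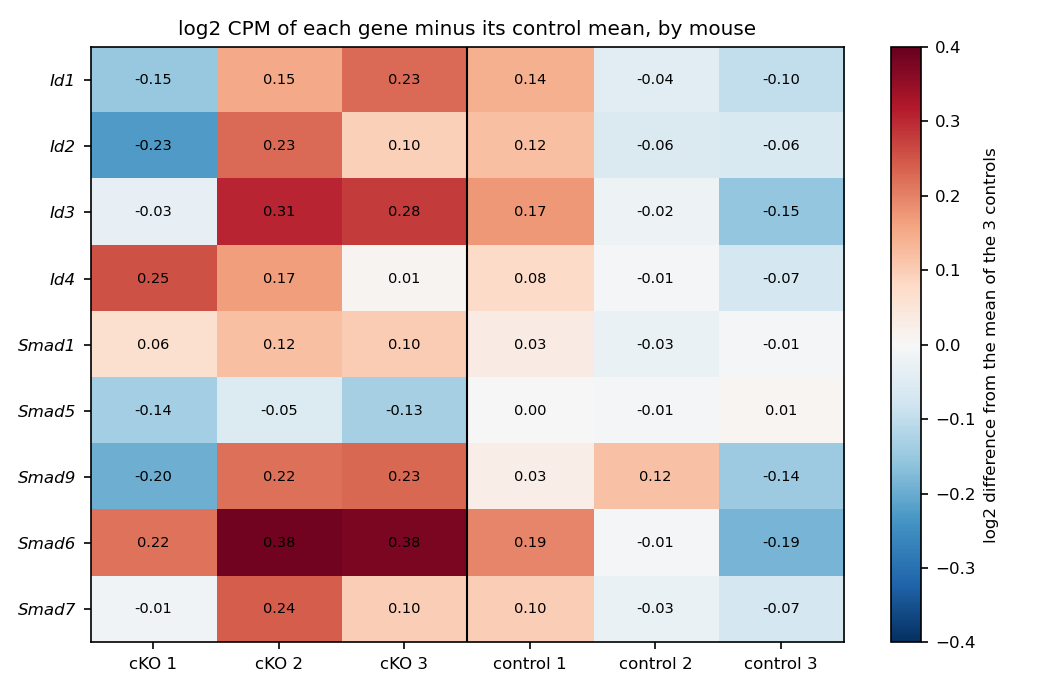
Log2 CPM of each member in each mouse minus the mean log2 CPM of the 3 controls, cKO columns left of control columns. The highest cells are those of Smad6 in cKO 2 and cKO 3 (0.38 each), and Id2 in cKO 1 is the lowest (-0.23).

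The members also differed together between mice of the same genotype, as seen by ranking the mice after the values were known. No test is given for these ranks. Among the cKO mice, cKO 1 had the lowest value in 8 of 9 members, all but Id4, whereas it was lowest in 37.2% of all tested genes. Among the controls, control 1 had the highest value in 7 of 9, all but Smad5 and Smad9, against 31.8% of all tested genes. Control 3 was lowest in 7 of 9, against 35.1%. These mice also differed in tissue makeup. In cKO 1 the epithelial sum (3566 CPM) and the maturation-stage sum (2624 CPM) were the highest of the cKO mice. The macrophage sum of cKO 1 (619 CPM) was the lowest of them, while its mesenchymal and endothelial sums lay between those of cKO 2 and cKO 3. The mesenchymal sum was mostly Col1a1, however. Of the other mesenchymal markers, Vim, Prrx1, Pax9, Lhx8 and Barx1 were lowest in cKO 1 among the cKO mice, and Lhx6 and Twist1 were not. The male control 1 held the skeletal muscle. From control 1 to control 3 the sums fell for dental mesenchyme (15868, 12790 and 9108 CPM), endothelium (663, 658 and 625 CPM) and macrophages (516, 496 and 384 CPM). The mesenchymal fall was mostly that of Col1a1. Prrx1, Pax9 and Lhx8 also fell at each step, whereas Vim, Lhx6, Barx1 and Twist1 did not. The epithelial sum rose (2633, 2995 and 3469 CPM). Whether any of these bears on the members was not tested. Without cKO 1, 3 members had an unadjusted edgeR p under 0.05 (Smad6, Id3 and Smad9), as did 16.7% of all genes tested in that fit, and none passed over all genes.

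Smad6 was the 1 member whose values spanned at least 0.5 on the log2 scale over the 6 mice (0.57). Among 13577 other genes of at least 1 CPM, the 3 with the most similar course over the 6 mice were Plcb1, Mylk and Entpd1. Their root mean square differences from Smad6 in centred log2 CPM were 0.034, 0.036 and 0.040. Plcb1 encodes a phospholipase C, Mylk the myosin light chain kinase and Entpd1 an ectonucleotidase. Mylk, for example, measured 99.3, 107 and 111 CPM in the cKO mice and 101, 81.8 and 75.6 CPM in the controls, with control 1 again near the cKO mice.

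The wider pathway was followed with 55 listed genes, of which 54 were tested and Bmpr1b was too low. None passed by edgeR. By DESeq2 4 were called higher and 3 lower, 7 of 54 in all, against 6.89% of all tested genes. An unadjusted edgeR p under 0.05 was found for 17 of 54, against 17.3% of all tested genes. Both shares were above those of all tested genes, in lists chosen with earlier results of these data known. The median log2 fold change of the 54 was -0.015, with 27 above 0 and 27 below. Every cKO mouse was above every control for 9 of the 54, against 11.1% of all tested genes. Every cKO mouse was below every control for 11 of the 54, against 12%.

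Among 9 BMP ligands, 4 had log2 fold changes above 0 and 5 below. Gdf5, a joint and ligament growth factor, measured 6.28, 7.42 and 4.97 CPM in the cKO mice and 12.3, 10.6 and 15.6 CPM in the controls (log2 fold change -1.04, SE 0.19, edgeR adjusted p = 0.0819, DESeq2 adjusted p = 3.67e-05). An annotated transcript overlaps 40.3% of its exonic bases. Bmp7, a ligand of dental epithelium and mesenchyme, measured 136, 132 and 139 CPM in the cKO mice and 160, 164 and 152 CPM in the controls (log2 fold change -0.22, edgeR adjusted p = 0.116, DESeq2 adjusted p = 0.0168). For both, every cKO mouse lay below every control. This was so for 4 of the 9 ligands, against 12% of all tested genes. For 1 of the 9 every cKO mouse lay above every control, against 11.1% of all tested genes. Bmp2 and Bmp4, the ligands most often named in the tooth, had log2 fold changes of 0.24 and 0.090 and overlapping groups.

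The 6 tested receptors had log2 fold changes between -0.099 and 0.36. Acvrl1, a BMP receptor of endothelial cells, had the highest, with 38.8, 48.0 and 53.2 CPM in the cKO mice and 37.7, 40.9 and 30.8 CPM in the controls (edgeR adjusted p = 0.263). Its groups overlapped. Acvr1, a widely expressed type I receptor, measured 59.5, 59.1 and 63.9 CPM in the cKO mice and 64.5, 66.0 and 65.0 CPM in the controls (log2 fold change -0.099, edgeR adjusted p = 0.374).

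Of the pathway lists the secreted antagonists, which bind BMPs and keep them from their receptors, held the widest range. Grem1 measured 57.2, 47.9 and 20.2 CPM in the cKO mice and 9.51, 10.6 and 4.58 CPM in the controls (log2 fold change 2.35, SE 0.45, edgeR adjusted p = 0.0831, DESeq2 adjusted p = 0.00107). Nog measured 20.3, 18.7 and 16.3 CPM in the cKO mice and 14.8, 12.5 and 12.7 CPM in the controls (log2 fold change 0.47, edgeR adjusted p = 0.109, DESeq2 adjusted p = 0.0069). Every cKO mouse was above every control for both genes, as for 4 of the 11 antagonists, against 11.1% of all tested genes. For 2 of the 11 every cKO mouse was below every control, against 12% of all tested genes. Chrdl1, 1 of these 2, had a log2 fold change of -0.93 (edgeR adjusted p = 0.134, DESeq2 adjusted p = 0.00594). It is named because DESeq2 called it, a choice made after its values were seen.

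Inside the cell, Smad4, the partner that BMP and TGF-beta SMADs share, measured 63.1, 68.9 and 69.5 CPM in the cKO mice and 71.8, 71.0 and 70.2 CPM in the controls. Every cKO mouse lay below every control, which held for 12% of all tested genes. Smad4 had a log2 fold change of -0.080 (edgeR adjusted p = 0.505). Smad3, a SMAD of the TGF-beta branch, had one of -0.085 with overlapping groups (edgeR adjusted p = 0.481). Of 14 regulators of SMADs, Smurf2, a ubiquitin ligase for SMADs and their receptors, had the lowest p. It measured 79.4, 86.3 and 83.7 CPM in the cKO mice and 95.5, 91.6 and 95.6 CPM in the controls (log2 fold change -0.18, edgeR adjusted p = 0.153). The related ligase Nedd4l had a log2 fold change of -0.35 (edgeR adjusted p = 0.217). The E-proteins bound by Id proteins lay close to 0, with log2 fold changes of -0.057 for Tcf3, 0.020 for Tcf4 and 0.0030 for Tcf12.

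Of 8 other genes that BMP induces, 6 had a log2 fold change above 0, against 50% of all tested genes. DESeq2 called 2 of the 8, against 6.89% of all tested genes. Atoh8, a basic helix-loop-helix factor that BMP induces in endothelium, measured 15.9, 19.5 and 16.1 CPM in the cKO mice and 13.4, 8.97 and 7.94 CPM in the controls (log2 fold change 0.76, SE 0.20, edgeR adjusted p = 0.131, DESeq2 adjusted p = 0.00606). Msx1, a homeobox factor of dental mesenchyme, measured 232, 226 and 249 CPM in the cKO mice and 192, 181 and 132 CPM in the controls (log2 fold change 0.48, edgeR adjusted p = 0.150, DESeq2 adjusted p = 0.0196). For Atoh8 and Msx1 every cKO mouse lay above every control. The same held for Msx2, a relative of Msx1, with 188, 174 and 178 CPM in the cKO mice and 173, 163 and 167 CPM in the controls (log2 fold change 0.10, edgeR adjusted p = 0.406). This order of the groups was thus found for 3 of 8, against 11.1% of all tested genes. The other 5 genes had overlapping groups and log2 fold changes between -0.15 and 0.093.

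**Figure D5:**
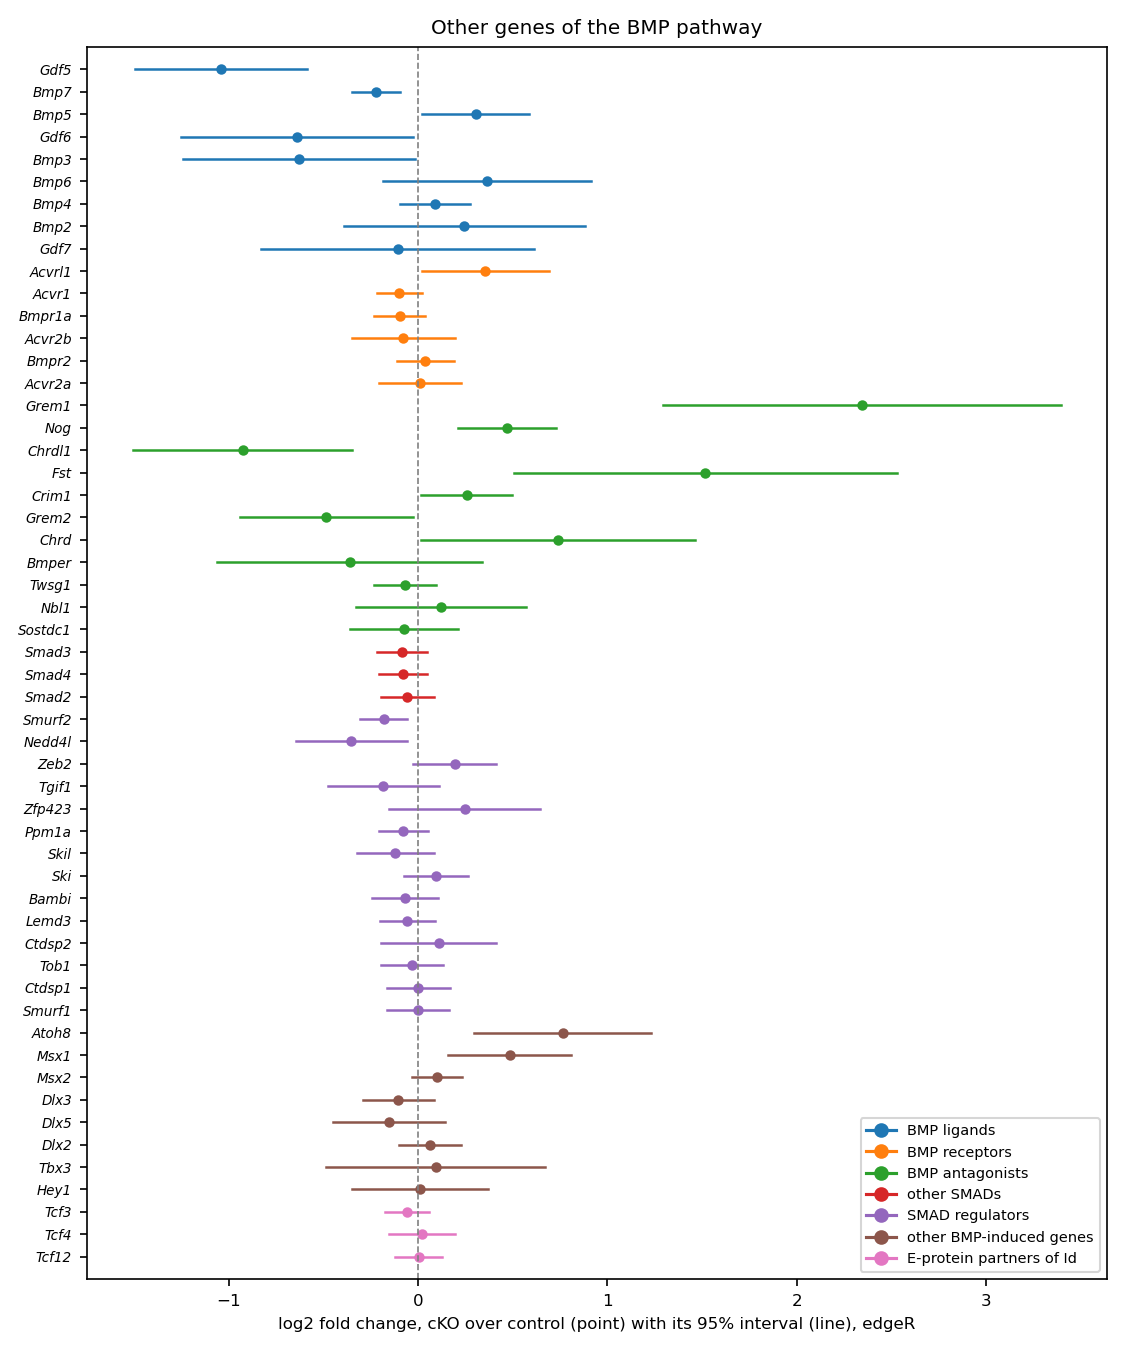
Log2 fold change, cKO over control, of the 54 tested pathway genes as points with 95% intervals from edgeR as lines, coloured by list and ordered by p within each list. Grem1 lies farthest to the right (2.35) and Gdf5 farthest to the left (-1.04), whereas other SMADs and E-proteins stand close to 0.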

How the data were processed

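Total RNA from the proximal incisor was sequenced as single-end reads of 75 cycles. STAR 2.6.1d, Partek and mm10 are named in the submitters' processing notes, and per the labels there is 1 mouse per library. The deposited estimated counts cover 25700 genes, and 45.6% to 48.0% of a library's values were whole (tolerance 1e-09). The other table gives the authors' normalized signal of 20676 genes, each value of which lay within 0.1% of the count plus 1 times 1 factor per library, with the 75th percentile at 41.5 to 41.6. The sources used here do not give counting settings or strand. The libraries were compared in pairs within groups, and none repeated another (chi-square per degree of freedom 46.0 to 73.3).

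Counts were rounded, filtered with filterByExpr (minimum count 10, minimum total 15) and scaled by TMM. The 3 cKO and 3 control libraries were compared with the quasi-likelihood F-test of edgeR 4.0.16 in R 4.3.3, two-sided, without covariates, with Benjamini-Hochberg adjustment over 19264 genes and a threshold of 0.05. Standard errors are the fold change over the square root of F. Alternatives used DESeq2 1.42.0, limma 3.58.1 on the deposited signal, other scalings and filters, and each mouse left out. Scripts were tested on simulated data. Coordinates are those of the table with the end reduced by 1, and exon lengths and overlaps come from GENCODE M21.

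The members and lists were chosen with earlier results of these data known. All members are named. Pathway lists are represented by genes that passed, or, failing that, by their 2 lowest p. Bmp2, Bmp4, Tcf12, Chrdl1 and Msx2 were added after their values were seen, as were the ratios, the sums and the ranking of mice within each group. The same holds for the pericyte and smooth muscle genes and for the single mesenchymal, epithelial and immediate early genes.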

Additional observations from a re-analysis of the deposited data

How the results depend on the processing

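Under all 12 alternatives 0 of the 9 members passed, and 1 to 3 had an unadjusted p under 0.05. The direction of each member held under each alternative except Id2, which ran from -0.053 without cKO 2 to 0.16 without cKO 1. Over all genes the count of 5 was 1327 by DESeq2 and ran from 0 to 72 when 1 mouse was left out. It was 0 without control 1, cKO 1 or cKO 2 (3103, 3278 and 2700 genes at an unadjusted p under 0.05), 3 without control 3, 8 without cKO 3 and 72 without control 2. Of the pathway genes, 0 passed by edgeR and 7 by DESeq2. The cause of these differences between tests was not tested. No scaling moved the median over all genes by more than 0.0068. No paired analysis was possible because no cKO and control mouse share a number in the labels. With 3 mice a group, an exact permutation test of a single value cannot go below p = 0.1, and 95% intervals of the members reached 1.47 times the control level.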
